A study of Mus musculus with 26 samples.

Results

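The 38 genes described here encode proteins of the G2 phase and of mitosis, and they were chosen by name. Of 52454 gene symbols in the deposited expression table, the 38 rows bearing these names were taken, and none of the names was repeated. All 38 had a mean of at least 1 FPKM (fragment counts scaled for transcript length and for the depth of the library) over the 10 RNA-seq libraries, the level that 14150 genes reached. The rule used no measured value, although results of these data were known when the genes were listed.

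RNA-seq was available from mouse embryonic fibroblasts (MEFs), hearts and livers of E14.5 embryos, with 1 library per condition. WT and *Dnmt3a* KO MEFs of passage 1 were treated with DMSO or with 10 µM GSK126 for 2 days, where GSK126 is an inhibitor of EZH2, the enzyme that methylates histone H3 at lysine 27. The time in DMSO is not given in the sources used here. These MEFs, and the WT and *Dnmt3a* KO hearts and livers, came from crosses of heterozygous *Dnmt3a* KO mice (B6;129S4-Dnmt3a tm1Enl) and are labelled as male with a C57BL6 background. The heart and the liver of each genotype bear the same number in their labels, which do not say what it stands for. The other fibroblasts, called 2i-MEFs, came from chimeric embryos made with female ES cells of a 129X1/SvJ and MSM/Ms cross, which were kept in 2i/L medium and carried a CRISPR/Cas9 KO of *Dnmt3a* or *Dnmt3b*. They were selected with G418 and sorted for GFP, and what remained of the host's cells was not measured here. Libraries labelled *Dnmt3a* KO are called KO-labelled below, because the level of *Dnmt3a* did not follow the label throughout. *Dnmt3a*, counted over the whole gene, was at 26.1 and 19.3 FPKM in WT MEFs with DMSO and GSK126, but at 85.7 and 84.5 FPKM in KO-labelled MEFs. It was 55.0 FPKM in WT heart and 125 FPKM in KO-labelled heart, while WT and KO-labelled liver showed 53.5 and 12.7 FPKM. The 2i-MEFs showed 4.21 FPKM with the *Dnmt3a* KO and 23.9 FPKM with the *Dnmt3b* KO. The targeted exons cannot be seen in a value of the whole gene, and every direction between genotypes below rests on the labels.

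Depth was estimated at 9151797 to 26148448 mapped reads per library, because low FPKM values of genes with a single annotated transcript moved in steps of whole reads. Between 96.2% and 97.9% of such values lay within 0.1 of a whole read, against 20% for values spaced evenly. With 1 library per condition, replicate error was not measured. No test was run, a fit that takes the genotypes as replicates was not made, and ratios below are described by their size and beside all 14150 genes. The fibroblast libraries held all 10 fibroblast markers at 21.1 FPKM or more, the hearts held all 10 cardiomyocyte markers, and the livers held all 10 hepatocyte and all 10 erythroid markers. Macrophage markers were summed to between 1406 and 1988 FPKM in the 4 MEF libraries from crosses and to 17.3 and 30.8 FPKM in 2i-MEFs, with *Lyz2* and *Cd68* among them.

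Entry into mitosis is driven by the kinase CDK1 with its partners cyclin A and cyclin B. Genes of the G2 phase and mitosis are known to be switched off in resting cells and switched on late in the cell cycle, and their mRNAs are used as markers of division. Many of their promoters carry CCAAT boxes, which bind the factor NF-Y, and a cell cycle homology region (CHR), which binds the MuvB complex. MuvB acts as a repressor together with the RB relatives p107 or p130 and E2F4, and as an activator together with B-MYB and FOXM1. In bulk RNA, fewer dividing cells and less of an mRNA per dividing cell cannot be told apart.

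Promoters of 31 of the 38 genes were matched by symbol in a RefSeq table (GRCm38.p6) of 250 bases before to 50 after the first listed start. *Ccna2*, *Cdc25c*, *Foxm1*, *Aurkb*, *Incenp*, *Kif20a* and *Tpx2* had no entry. The promoters of the 3 genes with the lowest and the 3 with the highest ratio of GSK126 to DMSO (mean of both genotypes, below) are shown, since they are the ends of the main comparison. They run from 200 bases before the start through the first 30 transcribed bases, 5′ to 3′ on the strand of the gene. Capitals mark CCAAT (or ATTGG on the other strand) and the CHR letters TTTGAA or TTCGAA (or TTCAAA on the other strand). The 3 with the lowest ratios were:
*Ccnb1* (chr13:100786457-100786686, minus strand): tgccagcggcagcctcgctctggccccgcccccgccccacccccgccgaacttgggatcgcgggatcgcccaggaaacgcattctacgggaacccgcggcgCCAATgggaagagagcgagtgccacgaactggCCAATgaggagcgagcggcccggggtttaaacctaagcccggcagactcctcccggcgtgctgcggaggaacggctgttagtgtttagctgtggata
*Cenpa* (chr5:30666686-30666915, plus strand): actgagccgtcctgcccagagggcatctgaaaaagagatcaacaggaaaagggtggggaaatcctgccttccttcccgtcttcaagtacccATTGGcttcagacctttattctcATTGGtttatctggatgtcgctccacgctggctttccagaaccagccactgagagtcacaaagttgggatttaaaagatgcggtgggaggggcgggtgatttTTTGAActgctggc
*Kif23* (chr9:61946770-61946999, minus strand): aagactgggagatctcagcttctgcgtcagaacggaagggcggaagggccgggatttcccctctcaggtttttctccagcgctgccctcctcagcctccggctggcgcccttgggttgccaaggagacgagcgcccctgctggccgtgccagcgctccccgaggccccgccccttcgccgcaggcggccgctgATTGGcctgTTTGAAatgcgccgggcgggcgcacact
The 3 with the highest ratios were:
*Bub3* (chr7:131560170-131560399, plus strand): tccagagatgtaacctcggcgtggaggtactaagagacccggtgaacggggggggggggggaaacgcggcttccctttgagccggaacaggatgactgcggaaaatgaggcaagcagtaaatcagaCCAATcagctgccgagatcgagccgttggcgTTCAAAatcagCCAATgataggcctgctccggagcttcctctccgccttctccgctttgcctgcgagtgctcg
*Bub1* (chr2:127831830-127832059, minus strand): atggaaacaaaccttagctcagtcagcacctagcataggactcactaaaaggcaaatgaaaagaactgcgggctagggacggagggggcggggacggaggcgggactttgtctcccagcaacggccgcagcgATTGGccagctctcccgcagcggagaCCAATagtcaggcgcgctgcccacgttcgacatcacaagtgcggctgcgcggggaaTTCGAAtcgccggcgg
*Ttk* (chr9:83834489-83834718, plus strand): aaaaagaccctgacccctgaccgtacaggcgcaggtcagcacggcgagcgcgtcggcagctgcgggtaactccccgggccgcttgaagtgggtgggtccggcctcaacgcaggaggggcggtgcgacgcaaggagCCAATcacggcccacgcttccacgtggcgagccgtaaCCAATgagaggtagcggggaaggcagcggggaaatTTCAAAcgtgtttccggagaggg

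Counting the start as 0, *Ccnb1* held CCAAT at -99 and -67 and no CHR letters in this window, whereas *Cenpa* held CCAAT at -109 and -86 and CHR letters at 16. *Bub3*, *Bub1* and *Ttk*, at the other end of the comparison, held both kinds of letters as well, as did *Kif23*. Both kinds of letters thus occurred at either end of the comparison. Over the 31 promoters of 300 bases, 24 held CCAAT, against 37.9% of 27025 promoters in the table, 1 per symbol. CHR letters were found in 24 of 31, against 19.4% of all promoters, and both kinds of letters in 21 of 31, against 7.7%. Among promoters of the expressed genes (mean of 1 FPKM or more), the shares were 38.6% for CCAAT, 13.6% for CHR letters and 5.83% for both. At least 2 CCAAT boxes were found in 17 of 31 promoters, against 12.2% of all. Restricted to the stretch from 100 bases before the start to 50 after it, CHR letters were found in 22 of 31, against 8.68% of all. *Top2a* and *Ube2c* held the most CCAAT boxes, 6 each, while *Birc5*, *Mad2l1*, *Nuf2* and *Nusap1* held neither kind. These are matches of letters and say nothing of binding.

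**Figure D1:**
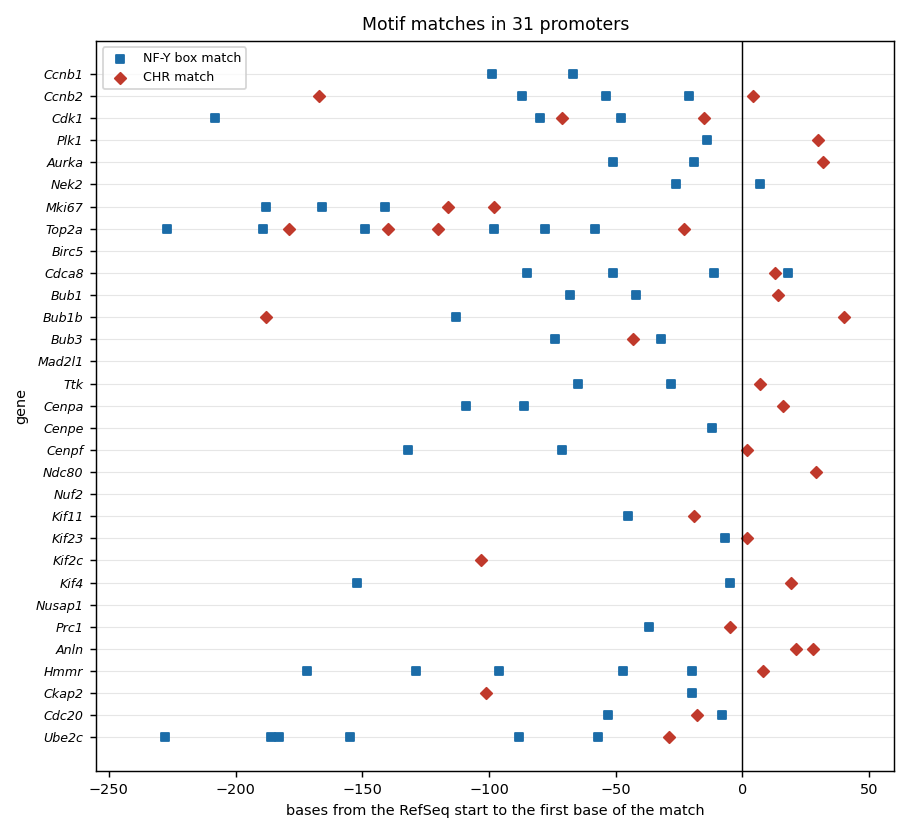
Matches of the NF-Y box (blue squares) and of the CHR (red diamonds) in 31 promoters, by gene (vertical axis) and by distance in bases from the RefSeq start (horizontal axis, start at 0). A CHR match lies between 100 bases before and 50 after the start in 22 of 31 genes, and 4 genes have a match of neither kind.

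Levels of the 38 genes with GSK126 were compared with those with DMSO in MEFs of either genotype. With GSK126, 35 of the 38 genes were lower than with DMSO in both genotypes, against 29% of all genes. The exceptions were *Bub1*, *Bub3* and *Ttk*, which act in the spindle checkpoint. The median level of the 38 genes was 13.2 FPKM in WT with DMSO and 8.12 FPKM with GSK126, and 13.9 and 7.31 FPKM in the KO-labelled libraries. The median log2 ratio of FPKM + 1 was -0.60 in WT (quartiles -0.71 and -0.36), where that of all genes was 0.00, on a scale that understates the change of low genes. It was -0.73 in KO-labelled MEFs (quartiles -0.87 and -0.63), where that of all genes was -0.03. Lower by any amount were 36 genes in WT, against 48.2% of all genes, and 37 in KO-labelled MEFs, against 53.6%.

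By size, 21 genes were at least 1.5-fold lower in WT (4.16% of all genes) and 31 in KO-labelled MEFs (8.82%), and 18 were so in both (1.17%). None of the 38 was at least 1.5-fold higher in either genotype (5.07% and 4.83% of all genes), nor at least 2-fold higher (1.46% and 1.41%). On the scale of FPKM + 1, which these counts use, *Ccnb1* and *Kif23* were at least 2-fold lower in WT (1.07% of all genes), and *Ccnb1*, *Aurkb*, *Cenpa*, *Cenpe* and *Kif11* in KO-labelled MEFs (2.37%). By FPKM alone, 3 genes were so in WT (3.6% of all genes), with *Kif4* added. In KO-labelled MEFs the 2-fold count by FPKM alone was 10 (6.45%), with *Cdc25c*, *Kif2c*, *Kif4*, *Hmmr* and *Cdc20* added. For 35 genes both GSK126 libraries lay below both DMSO libraries, which was the case for 17.7% of all genes. The shifts were thus moderate in size and spread over nearly all 38 genes. The ratio was lower in KO-labelled MEFs than in WT for 28 genes, with a median difference of -0.21, beside 7492 of 14150 genes and a median difference of -0.03 over all genes. The 38 differences had a range from -0.80 for *Cenpa* to 0.54 for *Kif23*. This difference between genotypes was not tested.

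**Figure D2:**
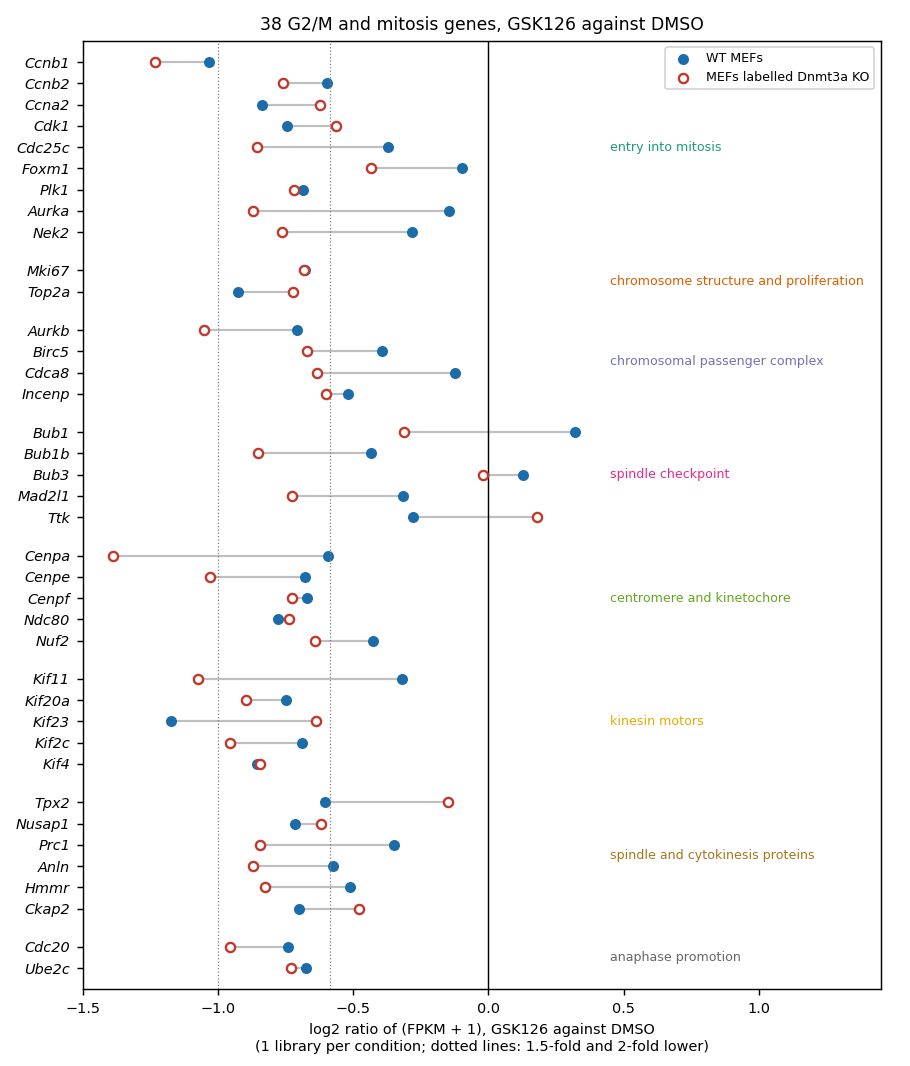
Log2 ratio of FPKM + 1 with GSK126 against DMSO (horizontal axis) for each of the 38 genes (vertical axis, by role), in WT MEFs (filled) and KO-labelled MEFs (open), 1 library per condition. All points but Bub1 and Bub3 in WT and Ttk in KO-labelled MEFs lie left of 0.

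Counting error was set beside these ratios. The reads behind a value depend on which annotated transcript they came from. If all came from the longest one, the 95% counting interval of the ratio of GSK126 to DMSO lay below 1 for 32 genes in WT and 36 in KO-labelled MEFs, and above 1 for 2 and 0. If all came from the shortest one, it lay below 1 for 19 and 28 genes and above 1 for 0 in either genotype. These intervals leave out differences between cultures.

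Among the 9 genes of entry into mitosis, all were lower in both genotypes, with median log2 ratios of -0.60 in WT and -0.76 in KO-labelled MEFs. *Ccnb1*, which encodes cyclin B1, was at 12.6 FPKM with DMSO and 5.67 FPKM with GSK126 in WT, and at 11.9 and 4.50 FPKM in KO-labelled MEFs. These are 2.23-fold and 2.65-fold lower levels by FPKM alone, the lowest mean ratio of the 38 genes. Its partner kinase *Cdk1* was at 86.8 and 51.4 FPKM in WT and at 71.0 and 47.7 FPKM in KO-labelled MEFs. *Ccnb2* (20.1 and 12.9 FPKM in WT, 18.8 and 10.7 FPKM in KO-labelled MEFs) and *Ccna2* (22.0 and 11.9 FPKM, 19.9 and 12.6 FPKM), the genes of cyclins B2 and A2, showed the same order. *Plk1*, the polo kinase, had log2 ratios of -0.68 and -0.72. Genes of other regulators differed more between genotypes. *Aurka*, the centrosomal Aurora kinase, had a log2 ratio of -0.15 in WT and -0.87 in KO-labelled MEFs. *Cdc25c*, the phosphatase that activates CDK1, had -0.37 and -0.86, and *Nek2*, a kinase of centrosome separation, had -0.28 and -0.76. *Foxm1*, which encodes an activator of this gene set, was at 8.79 and 8.15 FPKM in WT and at 9.55 and 6.81 FPKM in KO-labelled MEFs, the smallest shift of this group in either genotype.

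*Mki67* and *Top2a* encode Ki-67, the coat protein of mitotic chromosomes that is used to mark dividing cells, and topoisomerase II alpha, which untangles DNA. *Mki67* was at 17.3 FPKM with DMSO and 10.4 FPKM with GSK126 in WT, and at 12.7 and 7.54 FPKM in KO-labelled MEFs. *Top2a* was at 41.2 and 21.2 FPKM in WT and at 38.1 and 22.7 FPKM in KO-labelled MEFs. The ratio of *Mki67* was nearly equal in the genotypes, at -0.68 in each.

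The chromosomal passenger complex, which corrects the attachment of chromosomes to the spindle, was lower for all 4 of its genes. *Aurkb*, its kinase, was at 11.8 and 6.81 FPKM in WT and at 14.2 and 6.33 FPKM in KO-labelled MEFs. The scaffold gene *Incenp* had log2 ratios of -0.52 and -0.60. *Birc5* (survivin) and *Cdca8* (borealin) were nearer to 0 in WT, at -0.40 and -0.12, than in KO-labelled MEFs, at -0.67 and -0.64.

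The spindle checkpoint holds back anaphase until all chromosomes are attached, and its 5 genes had the median ratios closest to 0, -0.28 in WT and -0.31 in KO-labelled MEFs. *Bub1*, a checkpoint kinase, was at 4.24 FPKM with DMSO and 5.54 FPKM with GSK126 in WT, and at 4.18 and 3.17 FPKM in KO-labelled MEFs, so that the libraries with GSK126 lay on either side of those with DMSO. *Bub3*, the adaptor of BUB1 and BUBR1, varied least, at 63.1 and 69.0 FPKM in WT and 65.5 and 64.6 FPKM in KO-labelled MEFs. *Ttk*, which encodes the kinase MPS1, was at 2.02 and 1.49 FPKM in WT and at 2.35 and 2.80 FPKM in KO-labelled MEFs. It had the lowest level of the 38 genes in 3 of these libraries. For *Ttk* the counting interval included 1 in either genotype, whichever transcript the reads came from. The other members, *Bub1b* (BUBR1) and *Mad2l1* (MAD2), were lower in both genotypes, with log2 ratios of -0.43 and -0.31 in WT and of -0.85 and -0.73 in KO-labelled MEFs.

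The 5 genes of the centromere and kinetochore, where spindle fibres attach, had median log2 ratios of -0.67 in WT and -0.74 in KO-labelled MEFs. *Cenpa*, the histone H3 variant of the centromere, was at 32.6 and 21.3 FPKM in WT and at 48.0 and 17.7 FPKM in KO-labelled MEFs. Its ratio of -1.39 in the latter was the lowest single value of all 38 genes, and it started from the higher of the DMSO levels. *Cenpe*, a kinetochore motor, had -0.68 and -1.03. *Ndc80* and *Nuf2*, which encode partners in the complex that grips microtubules, had -0.78 and -0.43 in WT and -0.74 and -0.64 in KO-labelled MEFs. *Cenpf*, a large outer kinetochore protein, had -0.67 and -0.73.

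The kinesin motors had the lowest median of the groups with at least 4 genes, -0.75 in WT and -0.90 in KO-labelled MEFs, and all 5 were lower in both genotypes. *Kif23*, a subunit of centralspindlin, was at 40.0 and 17.2 FPKM in WT, the lowest ratio there (-1.18), and at 29.5 and 18.6 FPKM in KO-labelled MEFs (-0.64). *Kif11*, the motor that pushes the spindle poles apart, had the reverse order, with log2 ratios of -0.32 and -1.07. *Kif4*, a chromosome-bound kinesin, had -0.86 and -0.84, *Kif20a*, a motor of the central spindle, -0.75 and -0.90, and *Kif2c*, which shortens microtubules, -0.69 and -0.96.

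The 6 genes of other spindle and cytokinesis proteins had medians of -0.59 and -0.72. *Tpx2*, the activator of Aurora A, was at 23.7 and 15.2 FPKM in WT but at 16.9 and 15.2 FPKM in KO-labelled MEFs. *Prc1*, which bundles microtubules of the central spindle, had ratios of -0.35 and -0.85, and *Anln*, which encodes anillin of the cleavage furrow, had -0.57 and -0.87. *Nusap1*, *Hmmr* and *Ckap2*, which encode spindle microtubule proteins, lay between -0.72 and -0.51 in WT and between -0.83 and -0.48 in KO-labelled MEFs. For anaphase promotion, *Cdc20*, the activator of the anaphase-promoting complex (APC/C), was at 31.9 and 18.6 FPKM in WT and at 30.4 and 15.2 FPKM in KO-labelled MEFs. *Ube2c*, the ubiquitin-conjugating enzyme of that complex, was at 39.9 and 24.6 FPKM and at 37.0 and 21.9 FPKM. Both genes were at least 1.5-fold lower in both genotypes.

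Other gene lists of the cell cycle were set beside the 38 genes. A list of 70 other mitosis genes had medians of -0.38 in WT and -0.55 in KO-labelled MEFs, and 53 of them were lower in both genotypes. The lowest by mean ratio were *Cenpi*, a centromere gene (4.72 and 1.15 FPKM in WT, 3.27 and 1.15 FPKM in KO-labelled MEFs), and *Ect2*, an activator of the cleavage furrow (8.62 and 3.72 FPKM, 11.7 and 4.21 FPKM). The highest were *Mybl2*, which encodes B-MYB (log2 ratios 0.68 and -0.21), and *Gtse1* (0.04 and 0.30). A list of 46 genes of S phase and DNA replication had medians nearer to 0, -0.26 and -0.36, with 35 lower in both genotypes. The replicative helicase genes *Mcm6* (-0.74 and -0.75) and *Mcm5* (-0.55 and -0.79) were its lowest. The highest were the replication factor gene *Rfc5* (0.22 and 0.20) and *Gins2* (0.74 and -0.37), a gene of the replication fork.

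Other lists held components and regulators of the cycle and genes used as a reference. The 15 subunits of the APC/C, a complex present through most of the cycle, had medians of -0.05 and -0.13. *Anapc15* (-0.69 and -0.51) and *Anapc1* (-0.54 and -0.44) were lowest, and *Anapc13* (0.18 and -0.06) and *Anapc16* (0.04 and 0.02) were highest. The 14 genes of MuvB, RB and E2F repressors had 0.03 and -0.21, ranging in mean ratio from *E2f7* (-0.90 and -0.40) and *E2f8* (0.04 and -0.84) to *Lin54* (0.51 and -0.01) and *Rb1* (0.21 and 0.06). Of the 3 NF-Y subunit genes, *Nfyb* had -0.39 and -0.10 and *Nfya* had 0.01 and -0.27. The 12 housekeeping genes had medians of 0.01 and 0.11, with *Actb* at -0.13 and -0.14 and *Ywhaz* at 0.20 and -0.37, while *B2m* (0.38 and 0.47) and *Rpl13a* (0.04 and 0.27) were highest.

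Of the 12 cell cycle inhibitors and p53 targets, 8 were higher and 3 lower with GSK126 in both genotypes (24.8% and 29% of all genes), and they had medians of 0.31 and 0.12. *Cdkn2b*, which encodes an inhibitor of CDK4 and CDK6, was at 61.2 FPKM with DMSO and 94.5 FPKM with GSK126 in WT, and at 62.5 and 113 FPKM in KO-labelled MEFs. *Cdkn2a*, the neighbouring inhibitor gene, was at 124 and 174 FPKM in WT and at 99.5 and 192 FPKM in KO-labelled MEFs. The lowest of the list were *Cdkn1b* (-0.37 and -0.87) and *Cdkn2d* (-0.46 and -0.19). Of the 6 genes of G1 cyclins and kinases, with medians of 0.23 and 0.04, *Ccnd1* was at 161 and 238 FPKM in WT and at 170 and 311 FPKM in KO-labelled MEFs. *Ccnd3* had log2 ratios of 0.54 and 0.11, *Cdk4* of -0.09 and -0.03, and *Cdk2* of -0.50 and -0.63.

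**Figure D3:**
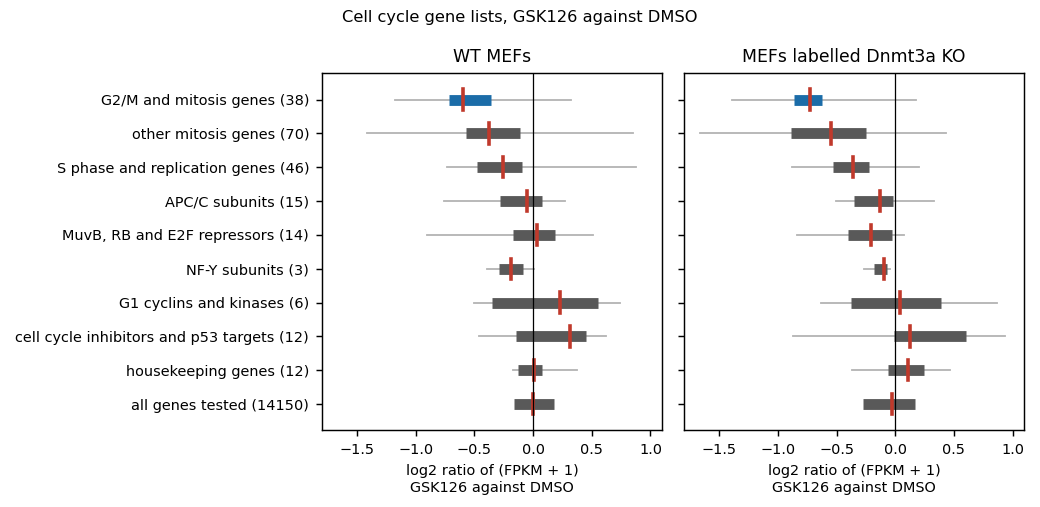
Log2 ratio of FPKM + 1 with GSK126 against DMSO (horizontal axis) for gene lists (vertical axis, number of genes in parentheses) in WT MEFs (left) and KO-labelled MEFs (right). Thick bars span the quartiles, red ticks mark medians and thin lines span lowest to highest gene (not drawn for all genes), and the 38 genes have the lowest median in either panel.

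Markers of cell types were compared in the same libraries. Of 10 fibroblast markers, 6 were lower with GSK126 in both genotypes, with medians of -0.11 in WT and -0.41 in KO-labelled MEFs. They were summed to 13757 FPKM with DMSO and 10765 FPKM with GSK126 in WT, and to 10958 and 7479 FPKM in KO-labelled MEFs. Of 10 macrophage markers, 1 was lower and 4 were higher in both genotypes, with medians of 0.03 in WT and 0.10 in KO-labelled MEFs. Their sums were 1928 and 1988 FPKM in WT and 1523 and 1406 FPKM in KO-labelled MEFs. In KO-labelled MEFs 8 of the 10 were higher and 2 lower, among them *Lyz2*, at 802 FPKM with DMSO and 638 FPKM with GSK126. No marker of either list was at 0 in any of the 4 libraries. The part of these cell types in the shift of the 38 genes was not tested. *Ezh2*, the gene of the inhibited enzyme, was at 18.8 and 11.3 FPKM in WT and at 17.3 and 18.7 FPKM in KO-labelled MEFs.

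Between genotypes of MEFs with DMSO, the 38 genes did not shift as a group. The median log2 ratio of the KO-labelled library to WT was -0.01, that of all genes was 0.02, and 17 genes were higher and 21 lower (53% and 44.7% of all genes). With FPKM rescaled to the same sum in each library, the median changed sign, to 0.05. None was 2-fold lower or higher (1.54% and 3.27% of all genes). The extremes were *Cenpa* (32.6 FPKM in WT, 48.0 FPKM in the KO-labelled library, log2 ratio 0.54) and *Cenpf* (8.27 and 5.55 FPKM, -0.50). With GSK126, 29 of 38 genes were lower and 9 higher in the KO-labelled library (47.9% and 49.3% of all genes), and the median was -0.25, beside 0.00 for all genes. In the same comparison 10 of 10 macrophage markers and 9 of 10 fibroblast markers were lower, each list with a median of -0.54, and their part in it was not tested. With DMSO, 10 of 10 macrophage markers and 8 of 10 fibroblast markers were lower, with medians of -0.54 and -0.34. Their part in the ratios of the 38 genes with DMSO was not tested either. Of the 38 genes, none was 2-fold lower or higher in the KO-labelled library with GSK126 (2.14% and 2.12% of all genes), and 2 were at least 1.5-fold lower and 1 higher (6.97% and 6.15%). There *Bub1* was lowest (5.54 FPKM in WT, 3.17 FPKM in the KO-labelled library, -0.65) and *Ttk* highest (1.49 and 2.80 FPKM, 0.61). *Ttk* rests on few reads, 77 in WT with GSK126 at most. These comparisons share their libraries with those of GSK126 against DMSO, so their values are not independent of them.

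In 2i-MEFs the *Dnmt3a* KO library was compared with the *Dnmt3b* KO library. The median log2 ratio was 0.11, beside 0.02 for all genes, with 27 genes higher and 11 lower (52% and 44.5% of all genes). None of the 38 was 2-fold lower or higher (2.51% and 4.23% of all genes), and 1 was at least 1.5-fold lower and 4 higher (7.17% and 10.7%). In the same comparison 9 of 10 macrophage markers were higher, with a median of 0.45 and sums of 30.8 and 17.3 FPKM, and 9 of 12 cell cycle inhibitors and p53 targets were lower, with a median of -0.27. Their part in the shift of the 38 genes was not tested. *Top2a* (45.4 FPKM with the *Dnmt3a* KO, 27.7 FPKM with the *Dnmt3b* KO) and *Cenpa* (47.6 and 29.3 FPKM) had the highest ratios, 0.69 and 0.68. *Cenpe* (5.84 and 9.35 FPKM, -0.60) and *Bub1b* (9.21 and 14.0 FPKM, -0.56) had the lowest. *Cenpa* and *Cenpe*, both of the centromere and kinetochore, thus lay at opposite ends. The 2i-MEF libraries were the shallowest of the series, at 10901343 and 9151797 reads.

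KO-labelled heart and liver differed little from WT in these genes. In heart 23 genes were lower and 15 higher (49.4% and 48.7% of all genes). The median log2 ratio was -0.03, beside 0.00 for all genes, and the range was from -0.40 for *Bub1b* (51.2 FPKM in WT, 38.5 FPKM in the KO-labelled heart) to 0.28 for *Cenpe* (12.3 and 15.1 FPKM). None was 2-fold lower or higher (1.2% and 1.38% of all genes). In liver 19 genes were lower and 19 higher (61.6% and 36.8% of all genes). The median was 0.00, beside -0.08 for all genes, and -0.06 with FPKM rescaled to the same sum. Relative to the median of genes with at least 1 FPKM in both livers, it was 0.08. The range was from -0.39 for *Bub3* (159 and 121 FPKM) to 0.22 for *Ndc80* (25.4 and 29.7 FPKM). None was 2-fold lower or higher there either (1.72% and 0.89% of all genes). In KO-labelled heart, 10 of 10 erythroid and 9 of 10 hepatocyte markers were lower than in WT, with medians of -0.67 and -0.99. In KO-labelled liver, 10 of 10 fibroblast, macrophage and skeletal muscle markers each were lower, with medians of -0.40, -0.55 and -1.90. Of the erythroid markers in liver, 6 were higher and 4 lower, with a median of 0.24. The part of these cell types in the ratios of the 38 genes was not tested. The spread of the 38 genes in heart and liver was narrower than in 2i-MEFs, where ratios ran from -0.60 to 0.69. The 2i-MEF libraries had fewer reads and lower levels of these genes, and counting error was not set beside these spreads.

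**Figure D4:**
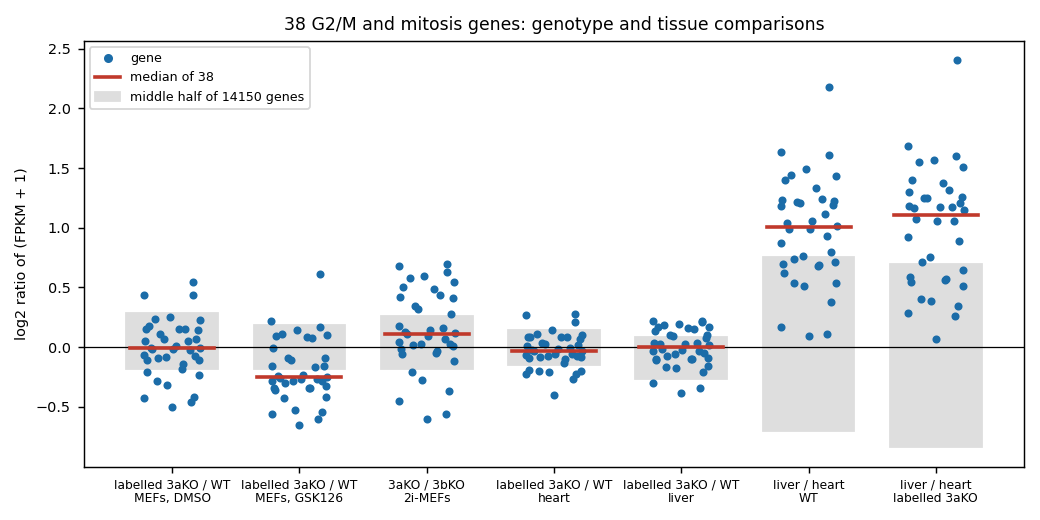
Log2 ratio of FPKM + 1 (vertical axis) for the 38 genes (points) in genotype and tissue comparisons (horizontal axis), with their median (red line) and the middle 50% of 14150 genes (grey). Genotype medians run from -0.25 to 0.11, while liver lies above heart by medians of 1.0 and 1.11.

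The largest differences among the 10 libraries were between tissues. The median level of the 38 genes was 79.6 FPKM in WT liver and 72.9 FPKM in KO-labelled liver, 32.8 and 30.6 FPKM in the corresponding hearts, and 7.31 to 13.9 FPKM in the 6 fibroblast libraries. Ordered by the median, liver was followed by heart, by MEFs with DMSO (13.9 FPKM in the KO-labelled library and 13.2 FPKM in WT), by 2i-MEFs (11.2 FPKM with the *Dnmt3a* KO and 10.0 FPKM with the *Dnmt3b* KO) and by MEFs with GSK126 (8.12 FPKM in WT and 7.31 FPKM in the KO-labelled library). The order of neighbours that lie as close as the MEFs with DMSO was not tested. Both liver libraries lay above both heart libraries for 37 of 38 genes, against 42.3% of all genes, with *Anln* as the exception. Both heart libraries lay above all 6 fibroblast libraries for 37 of 38 genes, against 27.1% of all genes, with *Ckap2* as the exception.

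All 38 genes were higher in liver than in heart in WT (52.1% of all genes) and in KO-labelled tissues (49.1%). In WT, liver was at least 1.5-fold above heart for 31 of 38 genes, against 30.2% of all genes, and at least 2-fold for 19, against 19.2%, and the median log2 ratio was 1.0, beside 0.06 for all genes. In KO-labelled tissues these values were 22 genes, 18.1%, 1.11 and 0.00. With FPKM rescaled to the same sum in each library, 15 genes in WT and 14 in KO-labelled tissues were at least 2-fold higher in liver, with medians of 0.88 and 0.91. Genes with at least 1 FPKM in both tissues had a median of 0.13 in WT, and relative to it the median of the 38 genes was 0.87. *Mki67* showed the largest difference, at 39.8 FPKM in heart and 184 FPKM in liver in WT, and at 38.8 and 210 FPKM in KO-labelled tissues. *Ube2c* had the highest level of the 38 genes in both tissues, 222 FPKM in heart and 507 FPKM in liver in WT, against 39.9 FPKM in WT MEFs with DMSO, and *Cdk1* was next in liver at 336 FPKM. In contrast, *Anln* (26.5 and 28.4 FPKM) and *Foxm1* (24.0 and 25.9 FPKM) were nearly level between WT heart and liver. *Ckap2* varied least over the tissues, at 11.5 FPKM in WT heart, 15.3 FPKM in WT liver and 13.8 FPKM in WT MEFs with DMSO.

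By role, at least 2-fold higher in WT liver than in WT heart by FPKM + 1 (19.2% of all genes) were 4 of 4 genes of the chromosomal passenger complex, 6 of 9 of entry into mitosis, 0 of 5 of the centromere and kinetochore and 1 of 5 kinesins, namely *Kif11* (13.2 and 42.4 FPKM). By FPKM alone *Cenpe* also passed (12.3 and 25.3 FPKM). With so few genes in a group, no difference between roles is drawn from these counts. The 46 genes of S phase and replication had a higher median ratio of liver to heart than the 38 genes, 1.57 in WT and 1.60 in KO-labelled tissues. The livers also differed from the hearts in their cell types. The 10 erythroid markers, among them haemoglobin genes and *Gata1*, were summed to 119722 and 161599 FPKM in the livers and to 35238 and 24297 FPKM in the hearts. The 10 hepatocyte markers were summed to 27876 and 18295 FPKM in liver and to 85.0 and 71.5 FPKM in heart. The 10 cardiomyocyte markers were summed to 45639 and 44179 FPKM in heart and to 32.9 and 20.7 FPKM in liver, with *Nppa* at 0 in WT liver. Their part in the difference of the 38 genes was not tested.

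**Figure D5:**
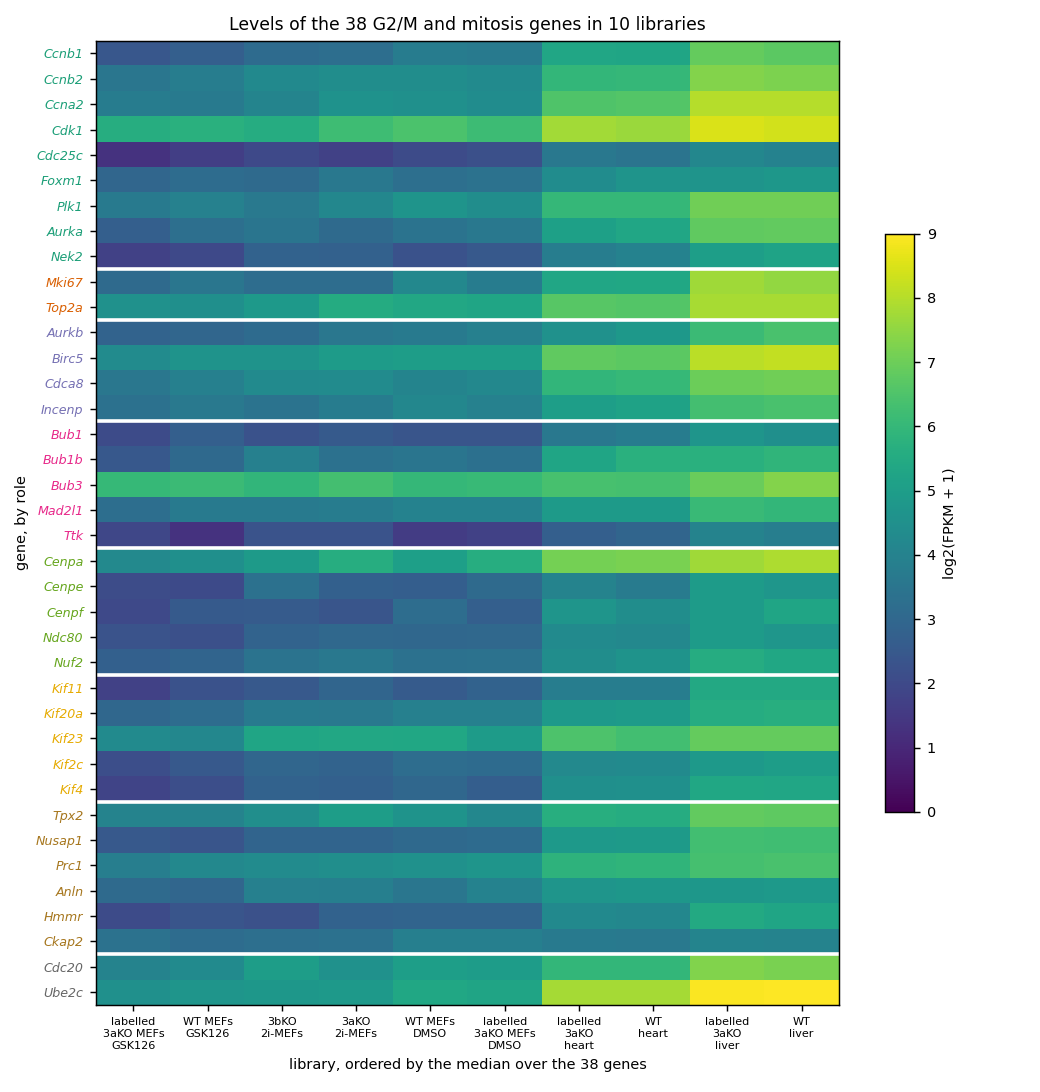
Levels as log2(FPKM + 1) (colour) of the 38 genes (rows, by role) in the 10 libraries (columns, ordered by the median over the 38 genes from lowest to highest). The 4 columns of heart and liver are brighter than the 6 fibroblast columns for nearly every gene, and Bub3 and Ckap2 change least across the rows.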

How the data were processed

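The 10 RNA-seq libraries, each the only one of its condition, were used. The 16 methylation samples are not used here, and 5 of them were put in no group because of their labels. Reads were 75-base single reads of stranded mRNA libraries. The submitters' processing notes name cutadapt 1.9.1, TopHat2 2.1.0, Bowtie2 2.2.5 and 2.2.8 and Cufflinks 2.2.1, and the study's methods name other versions of the trimming and mapping tools. By these methods, the reads were mapped to mm10 with a GENCODE annotation and uniquely mapped reads were kept. The file of expression values that was used holds FPKM per gene, as calculated and deposited by the authors. No other scaling is stated, so a change in a few abundant genes can move all others.

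Rows sharing a symbol were added up. Log2 ratios of FPKM + 1 were calculated for genes whose mean reached 1 FPKM, and genes at least 2-fold or 1.5-fold different were counted. No test was run, with 1 library per condition. The text names all 38 genes and, from each other list, the 2 highest and the 2 lowest genes by their mean ratio of GSK126 to DMSO, plus *Dnmt3a* and *Ezh2* as checks and genes from the 20 most like the mean of the 38 genes. From the marker lists, *Lyz2*, *Cd68*, *Gata1* and *Nppa* are named outside this rule, after their values were seen. From lists of 3 genes only the lower ones are named. The gene groups, lists and thresholds were chosen with earlier results of these data known. Depth was estimated from 6716 genes with 1 GENCODE transcript of at least 1500 bases, at a fragment length of 196 bases, and the 95% counting intervals cover counting error only. The alternatives were a pseudocount of 0.1 or none, 2 other scalings, a 1.5-fold threshold, no filter on low values, the highest row of a repeated symbol, the mean in place of the median and a narrower window for the CHR. The calculations were tested on simulated data. They were run with scipy 1.17.1, pandas 2.3.3 and numpy 2.4.6 under Python 3.11.15, and matplotlib 3.10.9 drew the figures.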

Additional observations from a re-analysis of the deposited data

Results flagged for a closer look

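In libraries labelled *Dnmt3a* KO (KO-labelled) and WT, for 3 of the 38 genes, the same comparison gave log2 ratios beyond 0.25 in opposite directions in 2 settings, a limit set after the data were seen. Over all genes, 15.7% did so in at least 1 of the 3 pairs of comparisons, a larger share than 3 of 38. *Bub1* was higher with GSK126 in WT MEFs (0.32) and lower in KO-labelled MEFs (-0.31), a difference of -0.63. *Cenpa* was higher in KO-labelled MEFs than in WT with DMSO (0.54) and lower with GSK126 (-0.25), a difference of -0.80. *Cenpf* was higher in KO-labelled heart than in WT heart (0.27) and lower in liver (-0.34), a difference of -0.62. With 1 library per condition, none of these differences was tested.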

How the results depend on the processing

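With FPKM rescaled to the same sum in each library, the median ratio of the 38 genes changed sign between KO-labelled and WT MEFs with DMSO, from -0.01 to 0.05, and between KO-labelled and WT liver, from 0.00 to -0.06. No other median changed sign under the alternatives run, and the liver median was 0.08 when centred on the median of all genes. At a 1.5-fold in place of a 2-fold threshold, the genes lower with GSK126 numbered 21 in WT and 31 in KO-labelled MEFs (4.16% and 8.82% of all genes), those lower and higher in the KO-labelled GSK126 library than in WT numbered 2 and 1 (6.97% and 6.15%), those lower and higher with the *Dnmt3a* KO in 2i-MEFs numbered 1 and 4 (7.17% and 10.7%), and those higher in WT liver than in WT heart numbered 31 (30.2%). With a pseudocount of 0.1, 8 genes in place of 5 were 2-fold lower with GSK126 in KO-labelled MEFs, and 10 with no pseudocount, an alternative added after the data were seen. With FPKM rescaled to the same sum, 14 genes in place of 22 were 2-fold higher in KO-labelled liver than in KO-labelled heart. With the mean in place of the median, 2 libraries, the MEFs with DMSO, changed places in the order of levels. The median ratio with GSK126 ran from -0.64 to -0.60 in WT and from -0.80 to -0.69 in KO-labelled MEFs. Without the filter on low values, all 18 shares of genes at least 2-fold lower or higher were smaller, since genes near 0 are then included. No test was run, and a fit with the genotype as a block was not made. Depth limits the genes of few reads, such as *Ttk*, and the lack of replicates limits every comparison.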

Other observations

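Among genes other than the 38, the 20 genes whose log2(FPKM + 1) was most like the mean of the 38 genes by Pearson's r over the 10 libraries had r from 0.989 to 0.996. The libraries fall into liver, heart and fibroblasts and share their tissue differences, so these values mostly describe the order of the tissues and are given without a test. The most alike were *Nasp*, a carrier of histones, *Cdca3*, *Cdc45*, *Cks2* and *Prim1*, and 10 of the 20 were on the lists of other mitosis genes or of S phase and replication genes. *Nasp* was at 26.9 FPKM with DMSO and 19.5 FPKM with GSK126 in WT, at 28.0 and 17.5 FPKM in KO-labelled MEFs, and at 71.3 FPKM in WT heart and 176 FPKM in WT liver. *H2afz*, which encodes a histone H2A variant, was at 245 and 179 FPKM in WT and at 218 and 160 FPKM in KO-labelled MEFs. Among the 38 genes, *Ckap2* (r = 0.74 with the mean of the other 37), *Bub3* (0.88) and *Anln* (0.91) followed this order least.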
